A study of Rattus norvegicus with 16 samples.

Results

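The baseline transcriptome of cultured rat aortic vascular smooth muscle cells was read from the 3 control-virus RNA-seq libraries of a series of 16 samples. The members were chosen by label alone: they are the 3 input libraries, sequenced without immunoprecipitation, of the control-virus group. The series asked what the RNA acetyltransferase NAT10 does in proliferation and migration of these cells, and no level below comes from the 13 other samples (NAT10 knockdown inputs, ac4C and NAT10 immunoprecipitates and a total RNA control). The cells were wild type primary aortic smooth muscle cells of Rattus norvegicus grown in DMEM/F12 medium with 20% fetal bovine serum, and they carried a control adenovirus for 48 hours in that full medium before RNA was taken. The submitters call the 3 libraries biological repeats, without saying whether they came from separate animals, so each spread given here may be between cultures of the same cells. No source used here gives the rats' age, sex and strain or the passage of the cells. All 3 libraries had virus and serum, so neither has a comparison here.

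Vascular smooth muscle cells of the aortic wall hold a contractile apparatus of smooth muscle actin, smooth muscle myosin and their regulators, and they also make the elastic and collagen fibres of the wall. They are known for leaving this contractile state in culture and after injury: serum and growth factors then favour a state, called synthetic, with more matrix, non-muscle cytoskeleton and cell division. SRF, a DNA-binding factor, and its muscle-restricted coactivator myocardin drive the contractile genes, while KLF4 and growth factor signalling are known to oppose them. The levels below are FPKM (fragments per unit length of gene, scaled for the depth of the library), a scale that corrects for gene length. Genes were counted as measured at a mean of 1 FPKM or more.

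The libraries held 12066096, 8171270 and 8623627 fragments, counts recovered from the FPKM with gene lengths searched over these and the 3 knockdown inputs, and 3 fragments on a 1-kb gene were worth 0.261, 0.384 and 0.362 FPKM. A mean of 1 FPKM or more was reached by 13230 of the 32883 genes listed, and by 11612 of 22250 protein-coding genes, which is 52.2%. Library 1 stood apart: the median gene differed by 0.26 on the log2(FPKM + 1) scale between libraries 1 and 2 and again between libraries 1 and 3, against 0.10 between libraries 2 and 3. In a chi-square comparison of fragment counts the median gene gave 4.77 and 4.89 for the pairs with library 1 and 0.739 for libraries 2 and 3, where counting error alone gives 0.455. Libraries 2 and 3 thus differed by little more than counting error, but by more than it. A gene was called apart where 1 library was at least 2-fold above or below both others: 2.35% of the 11612 protein-coding genes were above in library 1 and 2.33% below, 0.362% and 0.276% in library 2, and 0.405% and 0.121% in library 3. Each result that rests on library 1 is given by library below.

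The most abundant protein-coding messages came from the mitochondrial genome and from the extracellular matrix. Of the 30 genes with the highest mean FPKM, 10 were mitochondrial, 11 belonged to the matrix lists and 2, Tagln and Acta2, to the contractile lists, while 2 carry no gene name. Mt-co1, a subunit of cytochrome c oxidase, led with 18354, 15279 and 14674 FPKM in libraries 1, 2 and 3. Next was Sparc, a collagen-binding matricellular protein, with 8386, 6390.0 and 6275 FPKM. Col1a1, the main chain of type I collagen, had 5874, 6135 and 6235 FPKM, so its libraries lay within a narrow range, while Sparc was highest in library 1. The 100 most abundant genes held 36.9% ± 1.05 (SD, n = 3) of the summed protein-coding FPKM. Mitochondrially encoded genes took 5.84%, 4.99% and 4.82% of the fragments.

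**Figure D1:**
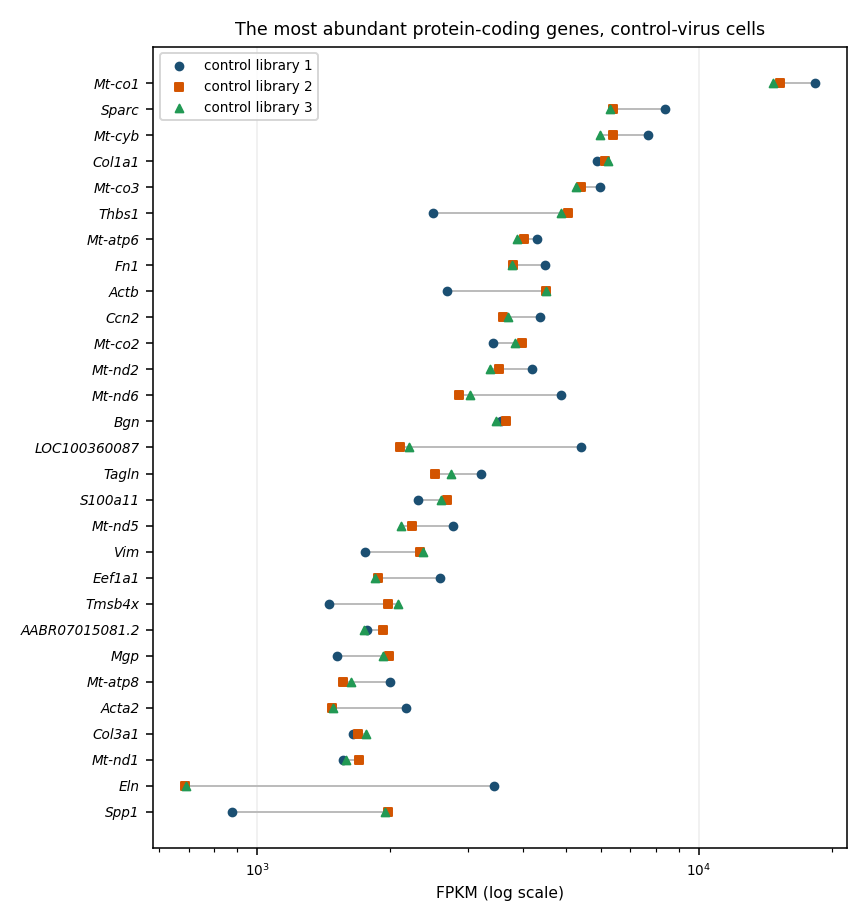
Of the 30 protein-coding genes with the highest mean FPKM in control-virus cells, 29 are drawn, in order of the mean. Each point is 1 library (FPKM, log scale) and the grey line joins the lowest and the highest. Mt-co1 and Sparc lead, and Eln spans the widest range, from 687 to 3429 FPKM.

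Below these came the adhesive glycoproteins and the cytoskeleton. Thbs1, thrombospondin 1, had 2505, 5042 and 4882 FPKM and was lowest in library 1. Fn1, fibronectin, had 4491, 3791 and 3775 FPKM and Actb, cytoplasmic beta actin, 2690.1, 4515 and 4518 FPKM. Ccn2, a matricellular growth factor known as a target of YAP and TEAD, had 4368, 3605 and 3702 FPKM, and Bgn, the proteoglycan biglycan, 3558, 3664 and 3475 FPKM. S100a11, a calcium-binding protein, had 2309, 2692 and 2609 FPKM, and Tmsb4x, which binds actin monomers, 1455, 1975 and 2083 FPKM. Eef1a1, a translation elongation factor, had 2593, 1882 and 1849.9 FPKM. The spread of these genes was largely between library 1 and the other libraries, in either direction.

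A limit of the table touches every low value. Of 43 genes used by nearly every cell, a list added after the values were seen, 27 reached 100 FPKM, but 8 had a mean under 25 FPKM and 3 under 2 FPKM: Myh9, Hmgb1 and Tpi1. Actg1, cytoplasmic gamma actin, had only 34.6, 37.5 and 41.4 FPKM and Rps18, a ribosomal protein, 22, 16.1 and 21.1 FPKM. Genes with near-identical copies elsewhere in the genome can lose reads in counting, but the cause of these low values was not tested. A gene near 0 below is therefore given as listed at that value, not as silent.

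The promoters of 4 genes are shown, chosen for the motifs found in them: Ccn2 and Ccn1, abundant matricellular genes whose promoters hold the motif of TEAD factors, and Srf and Cnn2, whose promoters hold a CArG box, the element bound by SRF. Each is the 250 bases before the annotated start, 5′ to 3′ on the gene's strand, from RefSeq with the GRCr8 assembly; capitals mark the motif.
Ccn2, chr1:22624615-22624864, minus strand: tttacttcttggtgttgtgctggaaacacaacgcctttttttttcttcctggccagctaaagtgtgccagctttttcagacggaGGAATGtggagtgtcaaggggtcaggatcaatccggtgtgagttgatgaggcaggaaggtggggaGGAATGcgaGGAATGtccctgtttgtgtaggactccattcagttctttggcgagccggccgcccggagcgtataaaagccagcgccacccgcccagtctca
Ccn1, chr2:237225690-237225939, minus strand: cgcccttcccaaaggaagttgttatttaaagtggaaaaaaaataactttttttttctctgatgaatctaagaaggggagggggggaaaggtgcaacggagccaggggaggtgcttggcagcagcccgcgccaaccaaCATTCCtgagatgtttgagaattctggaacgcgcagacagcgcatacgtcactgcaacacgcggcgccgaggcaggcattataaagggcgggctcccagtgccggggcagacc
Srf, chr9:21923826-21924075, plus strand: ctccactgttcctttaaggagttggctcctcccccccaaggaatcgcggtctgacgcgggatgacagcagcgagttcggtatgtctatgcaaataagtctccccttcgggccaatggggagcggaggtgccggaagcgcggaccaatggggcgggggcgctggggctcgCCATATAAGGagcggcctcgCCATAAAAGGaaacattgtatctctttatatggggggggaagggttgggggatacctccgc
Cnn2, chr7:10370313-10370562, minus strand: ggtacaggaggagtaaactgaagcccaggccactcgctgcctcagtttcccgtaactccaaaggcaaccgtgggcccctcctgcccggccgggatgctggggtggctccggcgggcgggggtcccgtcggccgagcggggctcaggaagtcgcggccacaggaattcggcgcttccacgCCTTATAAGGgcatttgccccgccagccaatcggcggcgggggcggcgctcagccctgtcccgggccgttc
The Ccn2 promoter held 3 matches to GGAATG, the farthest beginning 166 bases and the nearest 92 bases before the start. The Ccn1 promoter held 1 match, read as CATTCC, beginning 113 bases before the start. The Srf promoter held 2 CArG boxes, beginning 81 and 61 bases before its own start, and Cnn2 1, beginning 71 bases before.

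Over windows of 300 bases, from 250 before to 50 after the start, the TEAD motif (GGAATG or its reverse complement CATTCC) was in 14.2% of all 33469 promoters and a CArG box on either strand in 1.64%. A CArG box was counted only in the exact form CCWWWWWWGG, where W is A or T. Promoters were found for 25 of the 31 contractile genes, and 7 of them (28%) held the TEAD motif: Acta2, Nexn, Cald1, Tpm1, Mylk, Vcl and Flna. Of these 25, only Cnn2 held a CArG box of that exact form in the window. Boxes with a mismatch or outside the window were not searched for, so SRF elements of the others cannot be judged from this count. Among the 100 most abundant nuclear genes, 65 promoters were found, 12 of them (18.5%) with the TEAD motif and 1, that of the glutathione transferase Gstp1, with a CArG box. A match is a run of letters, not a bound site.

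The cells carried the actin side of the contractile apparatus at high levels and its smooth muscle myosin heavy chain at much lower ones. Of 31 contractile genes, 29 reached 1 FPKM, against 52.2% of all protein-coding genes. Tagln, transgelin, an actin-binding protein of smooth muscle, had 3207, 2526 and 2740.1 FPKM. Acta2, smooth muscle alpha actin, had 2176, 1479 and 1486 FPKM and Tpm2, beta tropomyosin, 716, 566 and 572 FPKM. For these 3 genes library 1 was the highest, and for each the lowest library lay above the highest library of the next gene in its list. Cald1, caldesmon, which inhibits actomyosin, had 443, 469.5 and 489 FPKM, and Tpm1, alpha tropomyosin, 290.2, 275 and 282 FPKM, with no library apart.

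Several late markers of contractile differentiation were uneven between libraries. Cnn1, basic calponin, had 137, 52.5 and 60.9 FPKM, so library 1 was at least 2-fold above both others. Myh11, the smooth muscle myosin heavy chain, had 47.5, 12.1 and 12.7 FPKM, and Myl9, its regulatory light chain, 665, 285 and 273 FPKM. Both were again 2-fold high in library 1. Synpo2, an actin-bundling protein of the Z-disc and dense bodies, had 14.7, 3.49 and 2.68 FPKM, and Actg2, enteric smooth muscle actin, 7.28, 2.25 and 1.44 FPKM. Itga8, an integrin of smooth muscle, had 139.6, 61.9 and 62.3 FPKM. These 6 of the 29 measured contractile genes were high in library 1, where 2.35% of all genes were, and 1, the LIM protein Crip1 with 12, 42.6 and 43.5 FPKM, was low. None was apart in library 2 or 3. In bulk RNA, more cells of a contractile kind and more of these messages per cell cannot be told apart.

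The enzymes that set myosin phosphorylation were apart in no library. Mylk, myosin light chain kinase, had 57.7, 28.7 and 30.5 FPKM, highest in library 1. Rock2 and Rock1, kinases that inhibit the myosin phosphatase, had 150.2, 117 and 115 FPKM and 46.5, 34.8 and 36.6 FPKM. Ppp1r12a, the targeting subunit of that phosphatase, had 57.6, 47.9 and 51.1 FPKM, and its inhibitor Ppp1r14a 61, 39.5 and 37.9 FPKM. Smtn, smoothelin, had 71.5, 61.4 and 58.2 FPKM and Lmod1, an actin nucleator, 40.5, 29.4 and 30.2 FPKM. The dense-plaque proteins were abundant: Flna, filamin A, had 583, 756 and 769.9 FPKM, Csrp1, a LIM protein, 400.5, 291 and 288 FPKM, and Vcl, vinculin, 278, 199 and 195 FPKM. Des, desmin, the muscle intermediate filament, had 0.16, 0.235 and 0.277 FPKM and Synm, synemin, 0.737, 0.396 and 0.406 FPKM, so of the 11 smooth muscle markers used to check the cell label Des alone was under 1 FPKM in each library.

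The median gene of the synthetic list stood higher than that of the contractile lists taken as 1. Of 22 synthetic genes 21 reached 1 FPKM, against 52.2% of all protein-coding genes, the exception being Krt18, a keratin. The median synthetic gene had 116, 185 and 187 FPKM and the median contractile gene 71.5, 56.4 and 58.2 FPKM, a log2 ratio of 0.70, 1.72 and 1.69 and a mean of 1.37 ± 0.58 (SD, n = 3). The ratio was above 0 in each library and lowest in library 1, where the contractile median was highest and the synthetic median lowest. The thin filament list by itself, with medians of 290.2, 275 and 282 FPKM, stood above the synthetic median in each library. These medians rest on which genes are in each list, and several synthetic genes (Thbs1, Fn1, Spp1, Mgp, Tnc, Col8a1, Sdc4) are matrix or cell-surface matrix genes.

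Spp1, osteopontin, a matricellular protein of migrating cells, had 879.8, 1979 and 1947 FPKM. S100a4, a calcium-binding protein linked to motility, had 102, 354 and 352 FPKM and Vcam1, a leukocyte adhesion molecule, 70.4, 237 and 237 FPKM. Of the 21 measured synthetic genes these 3 were 2-fold low in library 1, where 2.33% of all genes were. No synthetic gene was high there, where 2.35% of all genes were, a share at which few of 21 would be. Mgp, matrix Gla protein, an inhibitor of calcification, had 1516, 1991 and 1932 FPKM and Tnc, tenascin C, 182, 349 and 353 FPKM. Both were lowest in library 1, by less than 2-fold against the others. Tpm4, a non-muscle tropomyosin, had 983, 1109 and 1147 FPKM and Cnn3, acidic calponin, 275, 269 and 261 FPKM, both nearly level across libraries.

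**Figure D2:**
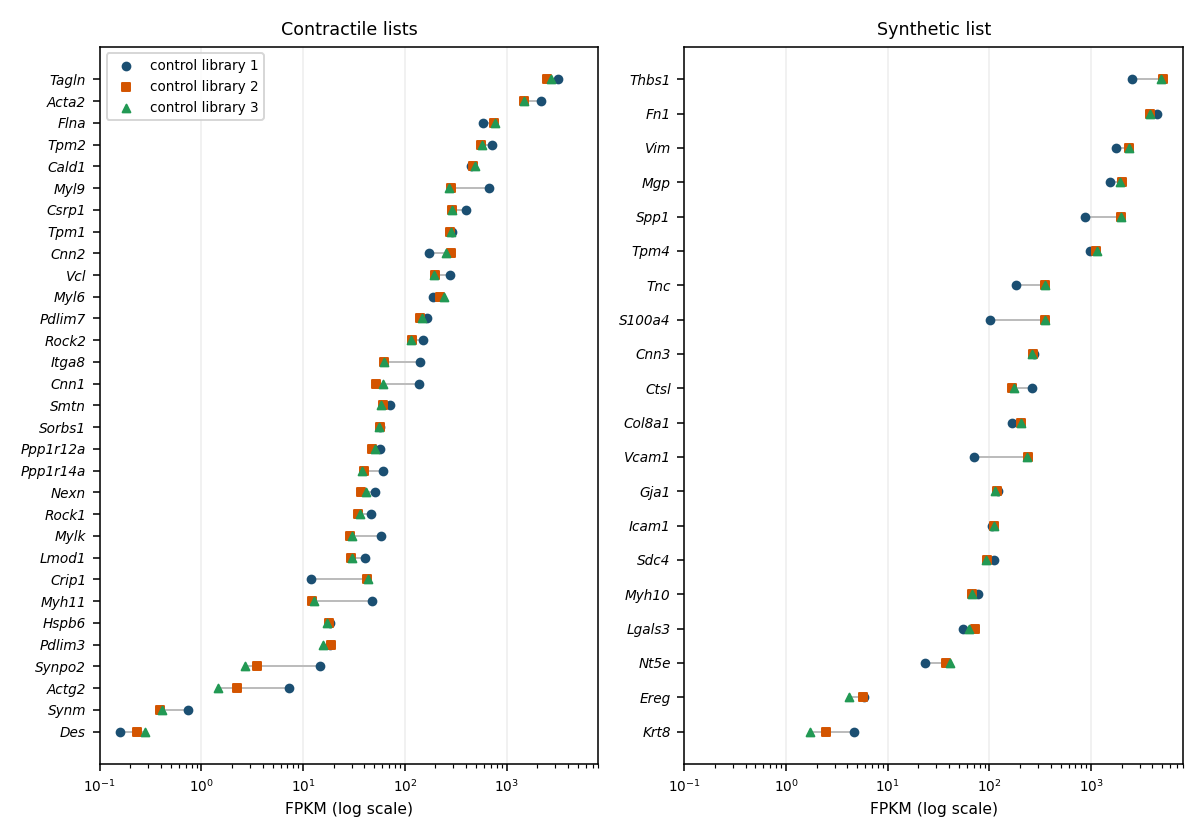
FPKM (log scale) of the contractile genes (left) and of the synthetic genes (right) drawn here, ordered by mean. Each point is 1 library. Cnn1, Myl9, Myh11, Itga8, Synpo2 and Actg2 lie to the right in library 1, while Spp1, S100a4 and Vcam1 lie to the left.

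Within gene families the non-muscle form led in most. The myosin heavy chains were Myh10, non-muscle myosin IIB, with 76.8, 67.6 and 66.9 FPKM, and Myh11 with the values above, a ratio of Myh10 to Myh11 of 1.62, 5.57 and 5.26. Myh9, non-muscle myosin IIA, was listed at 0, 0 and 0.0194 FPKM, among the widely used genes near 0, so the balance of the non-muscle forms cannot be read. Actb stood 1.24, 3.05 and 3.04 times above Acta2. Tpm4 stood 3.39, 4.03 and 4.07 times above Tpm1, but only 1.37, 1.96 and 2.00 times above Tpm2, the more abundant muscle form. Cnn3 stood 2.01, 5.12 and 4.29 times above Cnn1. Transgelin went the other way: Tagln stood 8.66, 5.21 and 5.72 times above its widely expressed relative Tagln2, which had 370.1, 485 and 479 FPKM.

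The remaining isoforms ranged from abundant to listed at 0. Tpm3 had 80.7, 109.9 and 111 FPKM and Cnn2 173, 283 and 255 FPKM. Acta1, skeletal actin, had 0.605, 0.535 and 1.01 FPKM, and Actc1, cardiac actin, was listed at 0 in each library, as were Myh3, Krt19 and Tagln3. Vim, vimentin, had 1759, 2337 and 2377 FPKM and was by far the leading intermediate filament. Nes, nestin, had 1.83, 5.85 and 6.74 FPKM and was 2-fold low in library 1, and the keratin Krt8 had 4.64, 2.49 and 1.73 FPKM. Myh14 had 0.654, 0.231 and 0.218 FPKM and Myh7 0, 0.0432 and 0 FPKM. Of the connexins, which form gap junctions, Gja1 had 120.3, 118 and 114 FPKM, Gjc1 9.12, 8.68 and 7.59 FPKM, Gja4 8.87, 4.92 and 5.24 FPKM and Gja5 0.169, 0.457 and 0.587 FPKM. Gja1 thus stood 13.6, 24.0 and 21.7 times above Gja4.

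Matrix was the largest programme among the lists. Of 139 matrix genes 112 (80.6%) reached 1 FPKM, against 52.2% of all protein-coding genes. They held 13.9% ± 0.274 (SD, n = 3) of the nuclear protein-coding FPKM and 21.0% ± 0.0646 (SD, n = 3) of the nuclear protein-coding fragments. The total was steady across libraries although its parts were not: 12 of the 112 measured matrix genes were 2-fold high and 11 2-fold low in library 1, where 2.35% and 2.33% of all genes were, and none was apart in library 2 or 3.

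Fibrillar collagens were led by types I, III and V. Col3a1 had 1653, 1696 and 1768 FPKM, which was 0.280 ± 0.00367 (SD, n = 3) of Col1a1. Col5a2 had 834, 983 and 1017 FPKM and Col5a1 379, 413 and 432 FPKM, chains of the collagen that nucleates type I fibrils. Col1a2, whose chain joins pairs of Col1a1 chains in the type I trimer, had only 181, 176 and 219.7 FPKM, so that Col1a1 was listed 28.4 to 34.9 times above it. The reason for that gap was not tested. Col11a1 had 223, 157 and 159 FPKM, and the cartilage collagen Col2a1 0.211, 0.0282 and 0.0532 FPKM.

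Basement membrane and microfibrillar collagens were present at lower levels. Sparc led the list, followed by Hspg2, perlecan, with 363, 247 and 249 FPKM and Nid1, nidogen, with 243, 224 and 217 FPKM. Lamc1, the common laminin gamma chain, had 261, 199 and 198 FPKM. Among alpha chains, Lama5 had 132, 54.2 and 53.1 FPKM and Lama4 63.7, 71.5 and 73 FPKM, and Lama5 was 2-fold high in library 1. Col4a1 and Col4a2, the main type IV chains, had 204, 124 and 126 FPKM and 159.8, 96.6 and 102 FPKM. Col18a1, the source of endostatin, had 329.7, 119.7 and 122 FPKM and was 2-fold high in library 1. Col6a2, Col6a1 and Col8a1 had 192, 266 and 271, 141, 229 and 241 and 166, 204 and 202 FPKM. Col12a1, which decorates fibrils, had 56.3, 119 and 119 FPKM and was 2-fold low in library 1.

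Elastic fibre genes differed widely between libraries, in both directions. Eln, tropoelastin, had 3429, 687 and 692 FPKM, with 141529, 19256 and 20579 fragments, and library 1 lay far above both others. Fbn1, the fibrillin of microfibrils, had 136, 254 and 255 FPKM, so the ratio of Eln to Fbn1 was 25.2, 2.71 and 2.71. Fbln5, which helps lay elastin on microfibrils, had 175, 80.7 and 74.2 FPKM and followed Eln in being high in library 1, as did the latent TGF-beta binding protein Ltbp4 with 26.7, 5.8 and 7.07 FPKM. Other microfibril genes went the opposite way: Mfap5 had 38.7, 112 and 108 FPKM and Ltbp1 23.8, 76.9 and 73.7 FPKM, both 2-fold low in library 1. Ltbp2 had 503, 666 and 663 FPKM and Fbln2 220.0, 422 and 433 FPKM, and Fbn2, the second fibrillin, 0.289, 0.164 and 0.216 FPKM.

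Proteoglycans were dominated by Bgn. Lum, lumican, had 194, 91.4 and 87.8 FPKM, high in library 1, and Dcn, decorin, 38.7, 121 and 117 FPKM, low in library 1. Prelp had 19.6, 88.5 and 86 FPKM, low in library 1, and Ogn, osteoglycin, 7.91, 0.435 and 0.637 FPKM, high there, so the small leucine-rich proteoglycans did not vary together. Acan, aggrecan, had 30.6, 10.4 and 10.8 FPKM, high in library 1, and Vcan, versican, 41.5, 69.3 and 67.4 FPKM. Sdc2, a syndecan, had 103, 156 and 146 FPKM. The hyaluronan synthases were low, Has1 with 1.16, 2.56 and 3.22 FPKM, Has2 with 1.17, 0.889 and 1.27 FPKM and Has3 with 1.0, 2.30 and 1.84 FPKM.

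Matricellular genes of the CCN family were abundant. Ccn1 had 1089, 1364 and 1367 FPKM, Ccn3 147, 282 and 272 FPKM and Ccn4 31.7, 52.8 and 45 FPKM, beside Ccn2 above. Postn, periostin, had 356, 378 and 359 FPKM and differed little between libraries. Thbs2 had 106, 72.7 and 77.9 FPKM, far below Thbs1, and Vtn, vitronectin, a serum protein, was near 0 in each library.

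The enzymes that build and cut the matrix were nearly complete on the building side. All 17 genes of collagen processing and crosslinking reached 1 FPKM, against 52.2% of all protein-coding genes. Serpinh1, the collagen chaperone HSP47, had 1731, 1442 and 1426 FPKM, P4hb, the shared subunit of prolyl hydroxylase, 506, 604 and 592 FPKM, and its catalytic partner P4ha1 516, 456 and 457 FPKM. Lox, lysyl oxidase, which crosslinks collagen and elastin, had 272, 579 and 559 FPKM and was 2-fold low in library 1, as was Loxl3 with 26.4, 92.1 and 88.8 FPKM. Loxl2 had 166, 159.7 and 167 FPKM and Loxl1 136, 115 and 117 FPKM, with no library apart. Tgm2, tissue transglutaminase, had 20.4, 6.5 and 5.95 FPKM and was high in library 1. Of 20 proteases 11 reached 1 FPKM, a share near the 52.2% of all protein-coding genes. Mmp2, gelatinase A, had 525, 361 and 351 FPKM, its activator Mmp14 139.6, 155 and 146 FPKM and Adamts1 141, 119.6 and 112 FPKM, while Mmp9, gelatinase B, had 0.138, 0.325 and 0.421 FPKM and Mmp3, Mmp12 and Mmp13 were under 0.1 FPKM in each library. Timp1, an inhibitor of metalloproteinases, had 284, 889 and 847 FPKM and was 2-fold low in library 1, Timp2 had 209.8, 292 and 303 FPKM and Timp3 191, 157 and 136 FPKM. Serpine2 had 40.2, 13.8 and 13.9 FPKM, high in library 1.

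**Figure D3:**
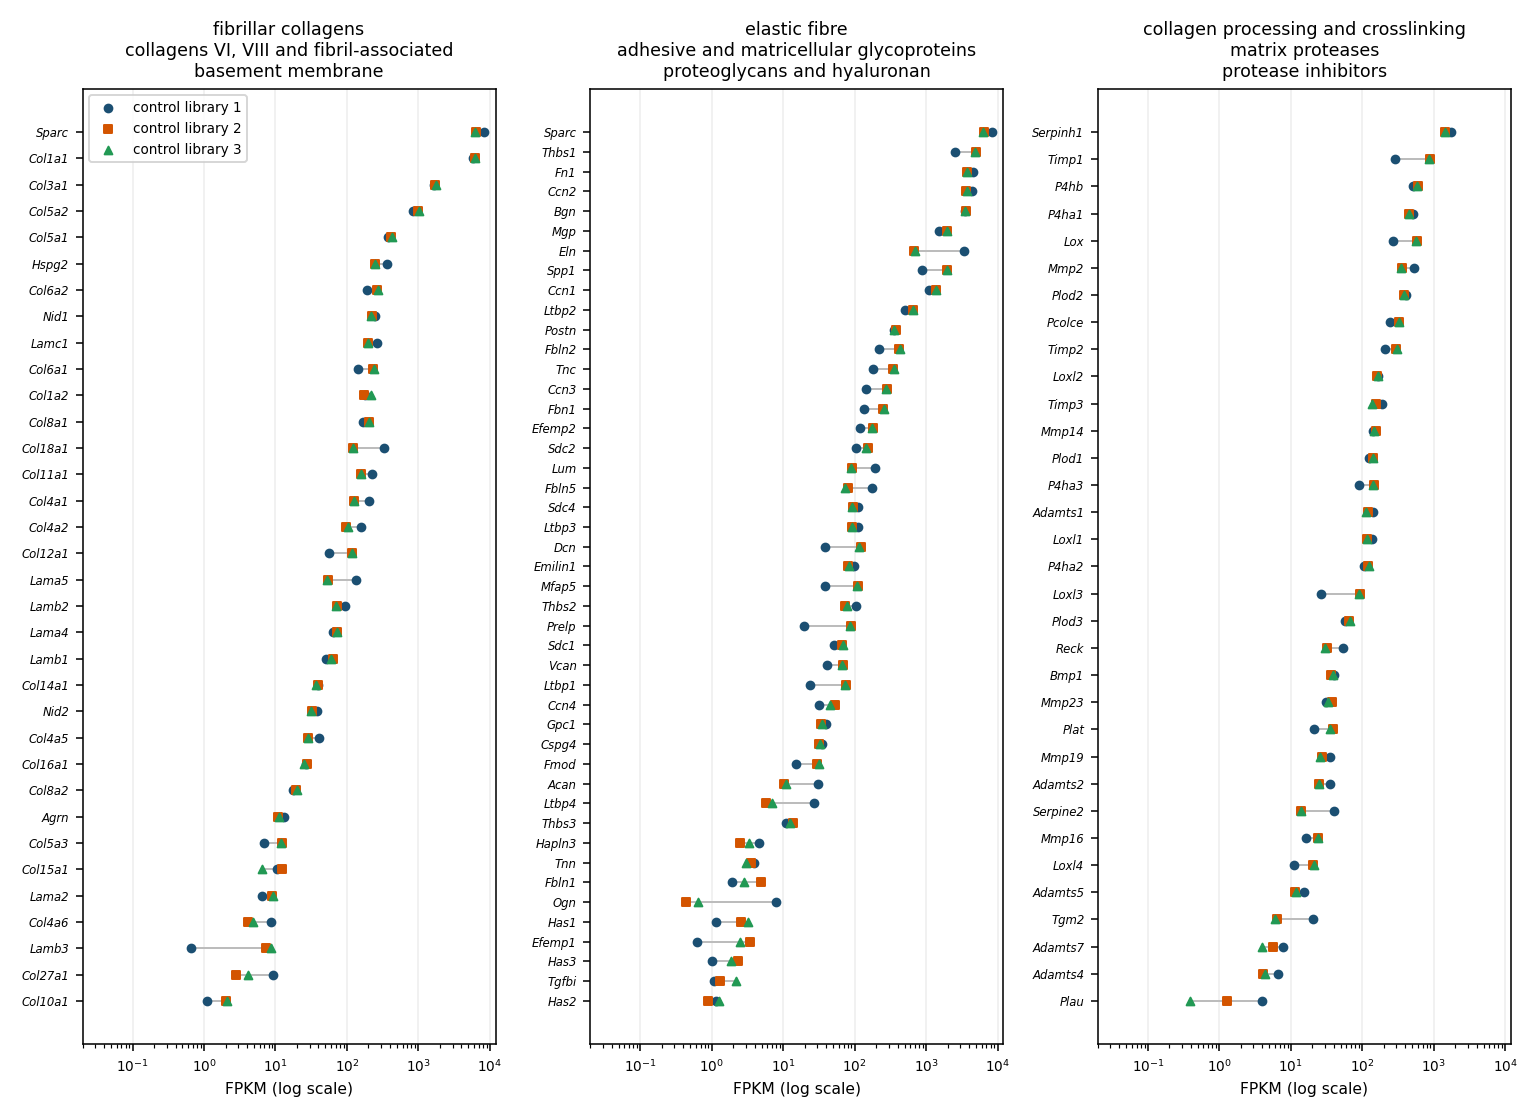
Measured matrix genes by group, ordered by mean FPKM (log scale); each point is 1 library. Eln, Ogn, Col18a1, Lama5 and Serpine2 lie to the right in library 1, and Timp1, Dcn, Prelp, Loxl3 and Lamb3 to the left.

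Receptors and ligands were measured in 144 of 200 genes (72%), against 52.2% of all protein-coding genes. Of these 144, 12 were high and 9 low in library 1, where 2.35% and 2.33% of all genes were. Mas1 alone was high in library 2, where 0.362% of all genes were. Of 45 vasoactive receptors 22 reached 1 FPKM, a share near the 52.2% of all protein-coding genes, and none had a mean above 50 FPKM. Agtr1a, the main angiotensin II receptor, had 36.6, 49.8 and 46.4 FPKM, and Agtr1b and Agtr2 were under 0.1 FPKM in each library. Avpr1a, the vasopressin receptor of vessels, had 15.7, 25.9 and 27.4 FPKM, and Ramp3, a partner of the adrenomedullin receptor Calcrl, 39.1, 50.6 and 50.4 FPKM against 2.64, 4.22 and 3.75 FPKM for Calcrl itself. Among adrenergic receptors Adra1d led with 7.02, 4.3 and 4.22 FPKM. P2ry2, a receptor for ATP and UTP, had 16.4, 21.7 and 19.7 FPKM, P2rx4, an ATP-gated channel, 17.4, 20.9 and 21.9 FPKM, and Adora2b, an adenosine receptor, 12, 11.9 and 12 FPKM with almost no spread. Mas1, a receptor for angiotensin-(1-7), had 0.827, 5.32 and 1.21 FPKM.

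The endothelin pair was lopsided in favour of the ligand. Edn1, endothelin 1, had 58.8, 129 and 119 FPKM, low in library 1. Ednra, the receptor of contractile smooth muscle, had 3.9, 0.428 and 0.428 FPKM from 228, 17 and 18 fragments, so it was high in library 1 and under 1 FPKM in the other libraries. Ednrb had 2.18, 1.8 and 2.06 FPKM. The receptor for nitric oxide, soluble guanylate cyclase, was like Ednra highest in library 1: its subunit Gucy1a1 had 12.9, 1.98 and 2.42 FPKM and Gucy1b1 14.3, 2.99 and 2.48 FPKM, both 2-fold high there. The natriuretic peptide receptor Npr2 had 43.4, 42.8 and 44 FPKM, level across libraries, and the clearance receptor Npr3 23.4, 18.2 and 19.4 FPKM.

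Receptors for thrombin, lipids and growth factors held some of the higher levels. F2r, the thrombin receptor PAR1, had 235, 238 and 218 FPKM and S1pr3, a sphingosine 1-phosphate receptor, 66.6, 59.1 and 58.4 FPKM. S1pr1 had 7.57, 1.24 and 0.797 FPKM and was high in library 1. Pdgfrb, the receptor for PDGF-BB in smooth muscle, had 224, 179 and 171 FPKM and Pdgfra 26.2, 28.5 and 27.8 FPKM, a ratio of 8.57, 6.29 and 6.16. Of the ligands, Pdgfa had 46, 44.9 and 40.9 FPKM and Pdgfb 0.159, 0.176 and 0.166 FPKM. Axl had 98, 185 and 187 FPKM and its ligand Gas6 279, 132 and 128 FPKM, and Gas6 was high in library 1. The collagen receptor Ddr2 had 76.5, 75.5 and 75.7 FPKM, Fgfr1 61.2, 62.9 and 63.9 FPKM, Igf1r 34.8, 44.3 and 42.5 FPKM and Egfr 13.9, 17.4 and 16.9 FPKM. Of the 29 receptor tyrosine kinases 17 reached 1 FPKM, and none of these 17 was apart in any library. In library 1, 2.35% of all genes were high and 2.33% low, so few of 17 would be apart at those shares.

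TGF-beta, integrin, Notch and lipoprotein receptors followed. All 12 TGF-beta and BMP receptors reached 1 FPKM, against 52.2% of all protein-coding genes. Bmpr2 had 91.3, 102 and 98.7 FPKM, the coreceptor Eng 47.8, 64.1 and 61.9 FPKM, Tgfbr2 20.4, 33.6 and 37.3 FPKM and Tgfbr1 6.22, 5.21 and 4.81 FPKM. Of the ligands, Tgfb3 had 177, 456 and 446 FPKM and was low in library 1, while Tgfb2 had 323, 259 and 245 FPKM and Tgfb1 76.1, 121 and 111 FPKM. Itgb1, the common beta chain of matrix receptors, had 535, 694 and 701 FPKM. Its collagen-binding partner Itga11 had 159, 185 and 177 FPKM, the fibronectin-binding partner Itga5 129, 111 and 106 FPKM, Itgav 114, 100.5 and 98 FPKM and Itga1 89.5, 79.8 and 80.5 FPKM. Itga3 had 18.1, 5.27 and 5.75 FPKM and, like Itga8, was high in library 1.

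Lrp1, an endocytic receptor, had 255, 252 and 248 FPKM and Vldlr 205, 134 and 136 FPKM, with no library apart. Notch2 had 28.3, 46.1 and 44.5 FPKM. Notch3, the Notch receptor of mural cells, had 16.3, 3.38 and 3.05 FPKM, its ligand Jag1 38.8, 17.4 and 16.9 FPKM and Notch1 5.08, 1.61 and 1.54 FPKM, all 3 high in library 1. The cytokine receptor subunit Il6st had 109, 70.0 and 73.4 FPKM, Ifngr1 68, 72 and 64.6 FPKM, Tnfrsf1a 85.5, 56.3 and 55 FPKM and Il1r1 31.5, 54 and 46.9 FPKM. The chemokine Ccl2, which recruits monocytes, had 254, 854 and 834 FPKM and was low in library 1. Vegfa had 180.0, 238 and 250.5 FPKM, Inhba, which forms activin A, 154, 209 and 209.9 FPKM, and Csf1, the macrophage growth factor, 132, 133 and 124 FPKM. Igf1 had 0.226, 2.39 and 3.51 FPKM and Hgf 2.27, 7.0 and 6.74 FPKM, both low in library 1.

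Of 106 channel genes 58 (54.7%) reached 1 FPKM, close to the 52.2% of all protein-coding genes. The calcium channels of the plasma membrane were led by an accessory subunit, Cacnb3, with 36.9, 38.1 and 34.6 FPKM, and Cacna2d1 had 16.2, 15.3 and 13.5 FPKM. Among pore-forming subunits the T-type Cacna1g had 11.9, 13.8 and 13.5 FPKM and the L-type Cacna1c, which carries calcium for contraction in arteries, 6.88, 5.41 and 5.88 FPKM. In each library Cacna1g was above Cacna1c.

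Potassium channels best known from contractile arterial muscle were at or near 0. Kcnma1, the large-conductance calcium-activated channel, had 0.11, 0.108 and 0.0762 FPKM and its beta subunit Kcnmb1 0.207, 0.122 and 0.115 FPKM, and Kcna5, a voltage-gated channel, was listed at 0 in each library. Kcnn4, the intermediate-conductance channel known from proliferating smooth muscle, had 5.85, 4.74 and 6.12 FPKM, and Kcnq5, a voltage-gated channel of vessels, 5.19, 8.91 and 9.94 FPKM. Kcnk2, a stretch-sensitive channel, had 2.37, 5.74 and 5.87 FPKM, low in library 1. Kcnj8 and Abcc9, which form the vascular ATP-sensitive channel, had 2.65, 0.152 and 0.239 FPKM and 3.59, 0.695 and 0.47 FPKM, both high in library 1. Kcnj11, the ATP-sensitive pore of heart and pancreas, had 0, 0 and 3.66 FPKM from 0, 0 and 92 fragments, so it was carried by library 3 alone, where 0.405% of genes were high. No potassium channel had a mean above 10 FPKM.

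**Figure D4:**
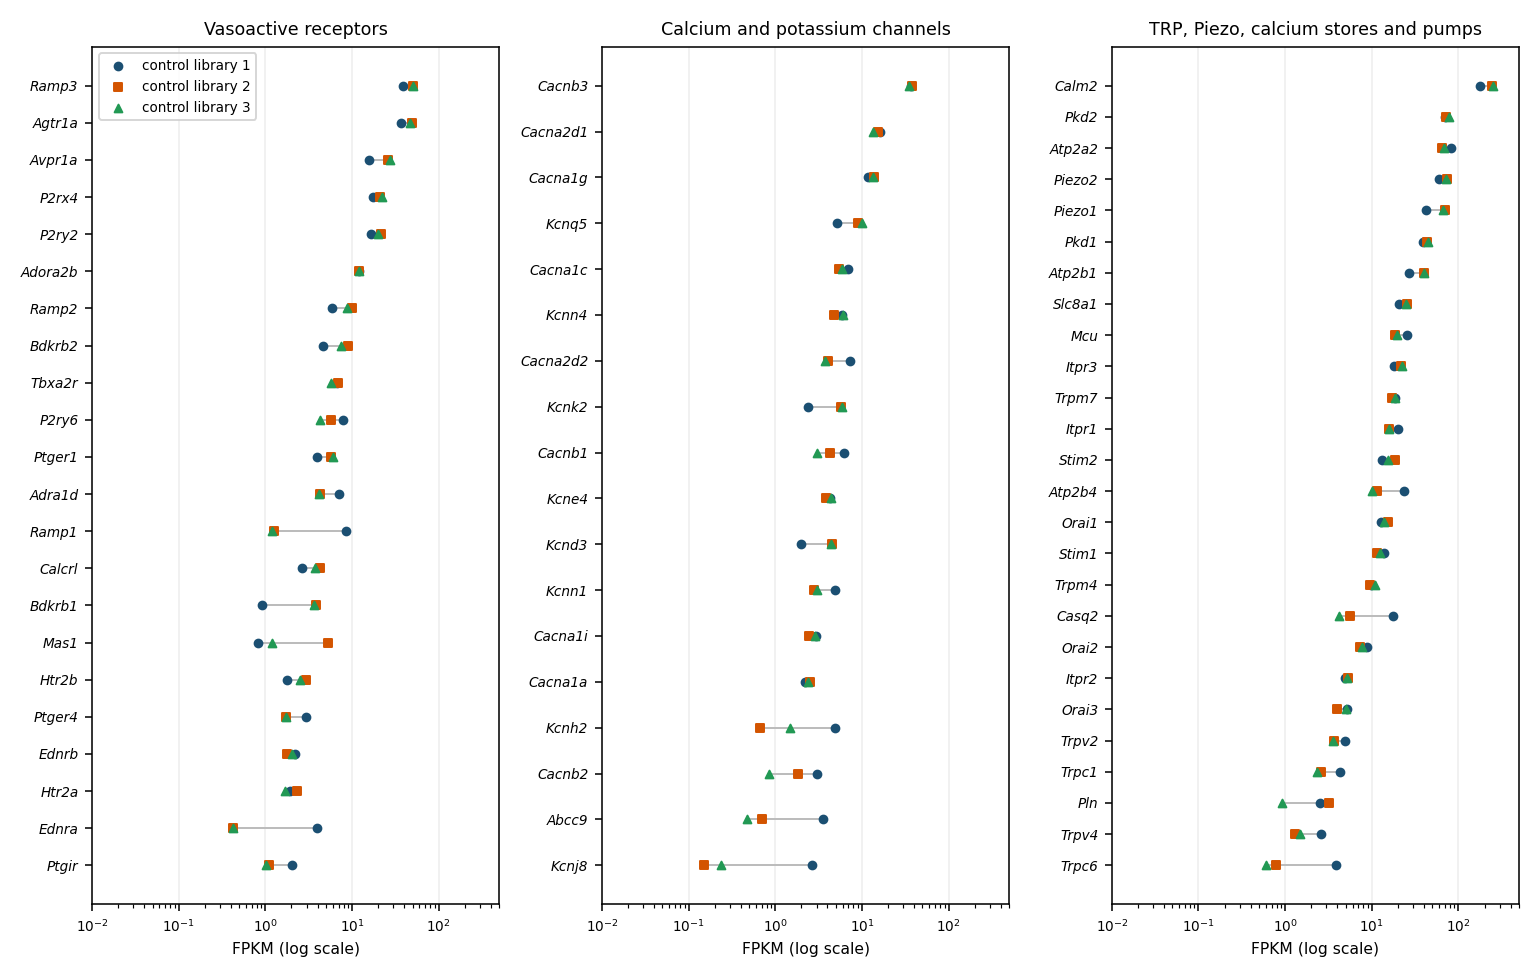
Vasoactive receptors (left), calcium and potassium channels (middle), and TRP, Piezo and calcium store genes (right) with a mean of 1 FPKM or more, on a log scale of FPKM; genes with a library at 0 cannot be drawn on this axis and are left out. Each point is 1 library. Ednra, Ramp1, Kcnj8, Abcc9, Casq2 and Trpc6 lie to the right in library 1.

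Among TRP, Piezo and polycystin channels 10 of 18 reached 1 FPKM, a share near the 52.2% of all protein-coding genes. The polycystins and Piezo genes led. Pkd2 and Pkd1, the polycystins, had 70.5, 71.5 and 78.6 FPKM and 39.1, 43.8 and 44.9 FPKM, and Piezo2 and Piezo1, stretch-gated channels, 59.1, 73.6 and 71.6 FPKM and 42.6, 70.6 and 66.9 FPKM. Trpm7 had 18.5, 17 and 18.4 FPKM, Trpm4 9.79, 9.6 and 10.9 FPKM and Trpc6, a receptor-operated channel, 3.88, 0.783 and 0.597 FPKM, high in library 1. The calcium pump of the sarcoplasmic reticulum, Atp2a2, had 81.8, 64.7 and 68 FPKM. The IP3 receptors, which release stored calcium, were Itpr3 with 17.9, 21.8 and 22.1 FPKM, Itpr1 with 20.0, 15.9 and 15.9 FPKM and Itpr2 with 4.93, 5.31 and 5.12 FPKM, while the ryanodine receptors Ryr1, Ryr2 and Ryr3 stayed under 0.2 FPKM in each library. Stim1 and Orai1, sensor and pore of store-operated entry, had 14, 11.6 and 12.6 FPKM and 12.6, 15.5 and 13.8 FPKM. Calm2, a calmodulin gene, had 178, 246 and 247 FPKM. Clic4, an intracellular chloride channel protein, had 281, 339 and 319.7 FPKM and Clic1 71.4, 119 and 109 FPKM, Ano6, a scramblase, 53.7, 51.5 and 51.4 FPKM, and Ano1, the calcium-activated chloride channel, 12.4, 6.19 and 6.15 FPKM. Best1, bestrophin, was listed at 192, 107 and 124 FPKM.

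Transcription factors of both states were present together. Of 124 factors 101 (81.5%) reached 1 FPKM, against 52.2% of all protein-coding genes. Srf had 24.1, 25.2 and 24.9 FPKM and Myocd, myocardin, 12.4, 11.3 and 10.9 FPKM, with no library apart. Mrtfa, the actin-regulated coactivator of SRF, had 39.6, 36.2 and 32.8 FPKM. Klf4 had 33.7, 51 and 50.1 FPKM, 2.71, 4.50 and 4.60 times Myocd, and Klf5 0.587, 0.751 and 1.1 FPKM. Elk1 and Elk3, ternary complex factors that also bind SRF, had 22.1, 18.8 and 18 FPKM and 41.8, 32.6 and 30.2 FPKM. The effectors of the Hippo pathway were higher: Tead1 had 84, 110.1 and 111 FPKM, Tead3 78.3, 74.5 and 72.8 FPKM, Wwtr1, which encodes TAZ, 91.3, 84.5 and 81.1 FPKM and Yap1 56.7, 56.3 and 60.5 FPKM. Mef2d had 61.8, 49.7 and 43.5 FPKM and Gata6, the vascular GATA factor, 19.8, 22.4 and 22.7 FPKM, while Gata4 was under 0.2 FPKM in each library.

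Mesenchymal factors were led by Foxp1 with 147, 179 and 177 FPKM and Prrx1 with 118, 145 and 145 FPKM. Foxs1, a factor of mural cells, had 51.2, 69.2 and 66.5 FPKM, Meis1 41.7, 46.3 and 42.5 FPKM, and Nr2f2, known from veins, 41.1, 38 and 36.7 FPKM. The Notch targets Hey2 and Hey1 had 20.2, 8.38 and 6.72 FPKM and 2.13, 0.273 and 0.257 FPKM, both high in library 1 as Notch3 and Jag1 were. Foxf1 had 7.96, 1.93 and 2.21 FPKM and Snai2 23.7, 10.4 and 10.3 FPKM, also high in library 1. Tcf21, a factor of adventitial and coronary precursors, had 0.142, 0 and 0.0987 FPKM, and the cardiac factors Tbx5, Tbx20 and Isl1 were listed at 0. Of 10 factors of bone and cartilage only 4 reached 1 FPKM, against 52.2% of all protein-coding genes. Runx1 had 85.8, 116 and 111 FPKM, Sox9 56.5, 105 and 103 FPKM and Runx2 14.2, 19.1 and 19.3 FPKM. Sp7, the late osteoblast factor, had 0.0535, 0.315 and 0 FPKM.

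Immediate early factors were measured in the serum-fed cells and were uneven. Egr1 had 78.6, 282 and 318 FPKM, Egr2 3.15, 12.7 and 13.1 FPKM, Egr3 1.06, 8.07 and 9.48 FPKM and Fos 13.8, 31 and 37.3 FPKM. All 4 were 2-fold low in library 1, as were the cell-cycle factors Foxm1 and Mybl2 with 2.82, 7.41 and 7.47 FPKM and 3.77, 8.73 and 8.65 FPKM. Atf4, a stress-responsive factor, had 184, 230.1 and 238 FPKM, Junb 113, 129 and 142 FPKM and Jund 131, 101 and 99.7 FPKM, with no library apart. Over the factor lists 4 genes were high and 7 low in library 1, where 2.35% and 2.33% of all genes were, and none was apart in library 2 or 3.

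HOX genes, which record position along the body axis, were measured from the B, C and D clusters. Of 39 HOX genes 15 (38.5%) reached 1 FPKM, fewer than the 52.2% of all protein-coding genes. They were 7 of 10 in cluster B, 4 of 9 in C, 4 of 9 in D and 0 of 11 in A. In cluster B, Hoxb4 had 25.5, 12 and 10.5 FPKM, Hoxb3 16.5, 16.4 and 14.8 FPKM, Hoxb2 16.9, 8.99 and 10.5 FPKM and Hoxb6 5.41, 13.3 and 11.8 FPKM. Hoxb7 had 1.59, 6.32 and 6.97 FPKM, Hoxb5 1.76, 4.92 and 4.56 FPKM and Hoxb8 1.88, 2.24 and 2.73 FPKM. So Hoxb4 was high and Hoxb7 and Hoxb5 low in library 1, within the same cluster. In cluster C, Hoxc8 had 4.59, 22 and 25.7 FPKM and Hoxc6 5.27, 17.6 and 15.6 FPKM, both low in library 1, Hoxc4 had 2.1, 5.07 and 5.42 FPKM and Hoxc9 0.855, 1.54 and 1.05 FPKM. In cluster D, Hoxd8 had 3.24, 1.54 and 1.89 FPKM, Hoxd4 2.64, 0.855 and 0.895 FPKM, Hoxd9 1.59, 0.995 and 0.536 FPKM and Hoxd3 2.0, 0.557 and 0.525 FPKM. No HOX gene numbered above 9 reached a mean of 1 FPKM. In cluster A, 10 of 11 genes were listed at 0 in each library and Hoxa10 had 0, 0 and 0.0356 FPKM. Where a name has more than 1 entry in the table, the entry with the highest mean is given. The cause of the low listing was not tested.

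**Figure D5:**
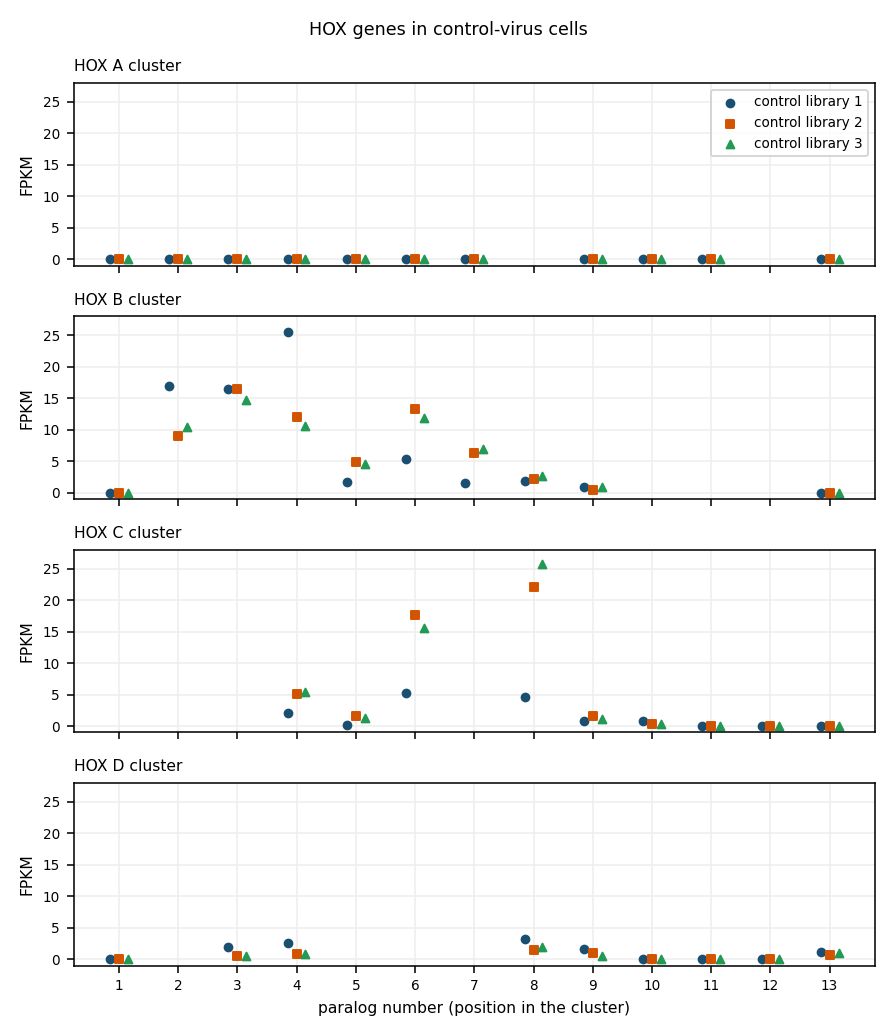
FPKM (linear scale) of each HOX gene by paralog number, with 1 panel for each cluster and 1 point for each library. Most levels lie in paralogs 2 to 8 of cluster B and 4 to 8 of cluster C, with cluster A at or near 0; Hoxc8 is at 4.59 FPKM in library 1 and above 20 in the other libraries.

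Genes of the cell cycle were measured throughout. Each of the 21 matched proliferation genes reached 1 FPKM, against 52.2% of all protein-coding genes, and the list's median was 7.25, 13.1 and 12.9 FPKM. Pcna, the replication clamp, had 24.7, 42.8 and 44.5 FPKM, Cdk1, the mitotic kinase, 27.2, 31.7 and 34.7 FPKM and Mki67, the proliferation marker Ki-67, 11, 20.6 and 20.5 FPKM. Rrm2, Mcm5 and Mcm3, genes of DNA synthesis, were 2-fold low in library 1, so library 1, which had the highest contractile median, had the lowest proliferation median. Any link between these medians was not tested. Ccnd1, cyclin D1, had 189, 152 and 146 FPKM and Cdk4, its partner kinase, 85.2, 105 and 105 FPKM, while the inhibitors Cdkn1a and Cdkn1b had 168, 111 and 107 FPKM and 50.7, 33.1 and 31.2 FPKM.

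Most endothelial and leukocyte markers were at or near 0. Beside the counts of each marker list stands the share of all protein-coding genes at 1 FPKM, 52.2%. Of 12 endothelial markers matched, 2 reached 1 FPKM, Egfl7 with 6.39, 8.17 and 6.88 FPKM and Erg with 1.38, 3.94 and 4.27 FPKM. The defining genes Cdh5, Tie1, Emcn, Cldn5 and Robo4 were listed at 0. Pecam1, a further endothelial marker, matched no listed gene, so its level is not known here. The list summed to 8.32, 13.1 and 11.8 FPKM. Of 16 leukocyte markers 3 reached 1 FPKM, led by Cd74, the invariant chain, with 16, 3.96 and 3.29 FPKM, while Ptprc, which encodes CD45, was listed at 0; the list summed to 21.3, 9.37 and 10.3 FPKM. Schwann and neural markers reached 1 FPKM in 4 of 11, with Ncam1 at 58.3, 122 and 122 FPKM and Tubb3 at 6.89, 9.34 and 11.8 FPKM, while Sox10 and Cdh19 were under 0.2 FPKM in each library. Adipocyte and mesothelial markers reached it in 2 of 10, Msln with 4.58, 4.57 and 5.08 FPKM and Wt1 with 0.166, 1.51 and 1.84 FPKM.

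Fibroblast and pericyte markers overlap with those of cultured smooth muscle and were mostly measured. Of 15 fibroblast markers 12 reached 1 FPKM, against 52.2% of all protein-coding genes, with a summed level of 561, 518 and 517 FPKM. Lum, Thy1 and Gsn led, Thy1 with 105, 106 and 112 FPKM and Gsn, gelsolin, with 126, 92.9 and 95.9 FPKM, while Pi16 had 2.54, 2.69 and 2.14 FPKM and Dpt 1.4, 1.27 and 1.66 FPKM. Of 10 pericyte markers 8 reached a mean of 1 FPKM, but Abcc9 and Kcnj8 did so only through library 1. Rgs5 had 1.28, 0.313 and 0.147 FPKM and Higd1b 0.38, 0 and 0 FPKM, both under a mean of 1 FPKM. Ndufa4l2 had 27.3, 63.9 and 57.9 FPKM, Cspg4, the proteoglycan NG2, 35.4, 31.5 and 33 FPKM, Anpep 32.1, 26.3 and 25.1 FPKM and Mcam 35.3, 9.21 and 9.85 FPKM. Mcam, Notch3, Abcc9 and Kcnj8 were high in library 1 and Ndufa4l2 low. The summed pericyte level was 166, 150.4 and 143 FPKM, highest in library 1 with the contractile genes; its part in their difference was not tested.

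Some messages of heart muscle were highest in library 3 and others were not. Nppa, atrial natriuretic peptide, had 0.392, 0.577 and 10.3 FPKM from 4, 4 and 76 fragments. Tnnt2, cardiac troponin T, had 0.216, 0.529 and 8.78 FPKM from 3, 5 and 88 fragments. Actn2, sarcomeric alpha actinin, had 0.263, 1.2 and 5.06 FPKM, and Myh6, the atrial myosin heavy chain, 0, 0 and 0.98 FPKM from 0, 0 and 49 fragments. Each was highest in library 3, and Nppa, Tnnt2 and Actn2 were the 3 of 13 striated muscle markers apart there, where 0.405% of all genes were high. The list summed to 23.2, 20.9 and 43.1 FPKM. Tnnc1 and Tnni3, further troponin genes, were also highest in library 3, from few fragments. Tnnc1 had 0.527, 0.466 and 1.17 FPKM from 5, 3 and 8 fragments. Tnni3 had 0.65, 0 and 0.752 FPKM from 6, 0 and 5 fragments. Tnnt3, a fast skeletal troponin T, had 20.5, 17.2 and 15.3 FPKM and was highest in library 1. Pln, phospholamban, which restrains the calcium pump in heart, had 2.51, 3.24 and 0.91 FPKM and was lowest in library 3. Myh7, Mb and Ryr2 were under 0.2 FPKM in each library and at 0 in library 3, and Actc1 was listed at 0 throughout. Pln, Ryr2 and Actc1 belong to other lists than the striated muscle markers. The source of the messages high in library 3 was not tested. Of the 22250 protein-coding genes listed, some had at least 30 fragments in 1 library and were 5-fold above both others there. These were 103 in library 1, 18 in library 2 and 29 in library 3. The minimum of 30 fragments is easier to reach in library 1, the deepest. Of the 29, 3 were striated muscle markers: Nppa, Tnnt2 and Myh6. The 18 of library 2 included Hprt1, an enzyme of purine salvage, with 0, 10.3 and 0.184 FPKM from 0, 53 and 1 fragments.

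Most genes agreed between libraries within narrow bounds. Of 6205 protein-coding genes with a mean of 10 FPKM or more, 5110 (82.4%) had a highest library at most 1.5 times the lowest, and 332 (5.35%) had one at least 2 times the lowest. Among the 10 genes with the widest range, 4 carry no gene name, and Rps6, a ribosomal protein with many copies, had 4.68, 70.4 and 264 FPKM, a different value in each library. The other 5 were low in library 1, and 4 of them are described. Igfbp5, a binding protein of insulin-like growth factors, had 0.904, 21.7 and 21 FPKM. Cxcl10, an interferon-induced chemokine, had 1.99, 34.6 and 37.9 FPKM, Gldn, gliomedin, 0.474, 19.1 and 19.1 FPKM, and Ptprb, a receptor phosphatase known from endothelium, 0.899, 16.1 and 17.2 FPKM. For each of these 4 genes libraries 2 and 3 lay close together.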

How the data were processed

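RNA was measured in 3 control-virus input libraries. Per the labels, total RNA was cut to fragments of 100 to 200 nt, the VAHTS Stranded mRNA-seq kit was used for RNA-seq, and sequencing was paired-end on an Illumina NovaSeq. The authors deposited FPKM values per gene for 6 input libraries in 1 table. Per the submitters' processing notes, the tools were HISAT2 2.1.0, cutadapt 2.5, HOMER 4.10.4, featureCounts 1.6.3 and DESeq2, and rn6 is listed beside GRCh38 and GRCm38 as a build; no tool or build is tied to a step. Deposited p-values of an ac4C peak list were used only to locate rows that give a gene's length.

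Fragment counts were recovered from the FPKM of all 6 input libraries, knockdown included: for 21401 of 21401 genes above 0 in any of them a gene length between 20 and 130000 nt made all values whole (relative tolerance 2e-08), and for 0 of 500 altered genes. The shortest such length was used, or the listed one where it was a multiple (316 genes). Of 7939 genes with a listed length, 5153 had that length in the end. For the rest the listed length was not a larger whole multiple of the one used, and the reason for the difference was not tested. Because the shortest fitting length was otherwise used, a recovered count may also be too low by a whole factor in some genes. FPKM levels do not depend on the recovered length. Levels were compared as log2(FPKM + 1), over protein-coding genes with a mean of 1 FPKM or more, in Python 3.11.15 with pandas 2.3.3 and numpy 2.4.6. A gene was apart where 1 library was 2-fold above or below both others, a rule tested on simulated data. There is 1 group, so no test was made between groups and no p-value is given. The 52 gene lists, with 834 symbols of which 813 matched by name, 2 through RefSeq synonyms and 19 not at all, and the members were chosen with earlier results of these data known. The genes named are the 30 most abundant, the 3 highest of each list and other list members where their role is described, all isoforms, the cell type markers, the HOX genes at 1 FPKM or more, and the 10 genes of widest range at a mean of 10 FPKM or more. Genes singled out beyond this rule, such as Kcnj11, Hprt1 and Gstp1, were chosen after their values were seen. Alternatives changed the filter, pseudocount, scaling and libraries used. Promoters came from RefSeq (GRCr8), and no coordinates of the authors' build were used. Sampling intervals were not computed; a count of 3 fragments on a 1-kb gene sets the limit below which a level of 0 is not informative, for counting error only. A few genes covered by the naming rule are not reported here, and are left out of the figures.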

Additional observations from a re-analysis of the deposited data

How the results depend on the processing

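No paired analysis was possible because the results come from 1 group and from no test. The share of summed protein-coding FPKM in the 100 most abundant genes, 36.9%, was 42.4% over all genes of the table and 33.9% when fragments replaced FPKM; leaving out each library in turn gave 36.3% to 37.3%. The median absolute log2 ratio between libraries, 0.21 in the mean of the 3 pairs, ranged from 0.10 without library 1 to 0.26 without library 3, and from 0.18 to 0.23 over the pseudocount, filter and scaling alternatives. The log2 ratio of synthetic to contractile medians, 1.37, kept its sign, with 1.19 to 1.70 when each library was left out in turn and 1.09 when only members at 1 FPKM or more were used. The number of genes measured, 13230, was 9194 at a threshold of 5 FPKM and 14596 at 0.5 FPKM. Of the 52 lists, 39 had a median of at least 1 FPKM, and 39 to 45 did over the alternatives tried. Depth limits levels near 0.3 FPKM for a gene of 1 kb, and no source used here says whether the 3 libraries came from separate animals, so the spread may be technical.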
